A study of Mus musculus with 25 samples.

Results

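Spindloid tumours are mammary tumours whose cells are spindle-shaped. The comparison here is between spindloid tumours of 2 genotypes, grouped by the pathology and genotype given in the labels. It was chosen with earlier results of these data known. MetTrp53 denotes MMTV-Met;Trp53fl/+ mice, which carry a Met transgene under the mouse mammary tumour virus promoter together with a conditional Trp53 allele deleted by Cre, and 3 of their 8 tumours were labelled spindloid. Trp53 denotes Trp53fl/+ mice, which carry that conditional allele with Cre and no Met transgene, and 3 of their 8 tumours were labelled spindloid. These 6 tumours are part of a series of 25 one-colour miRNA arrays of female FVB mice. The promoter that drives Cre and the ages of the mice are not given in the sources used here. The MetTrp53 spindloid tumours all came from nulliparous mice, whereas among the Trp53 spindloid tumours 1 came from a nulliparous mouse, 1 from a multiparous mouse and 1 from a mouse with no stated parity. The Trp53 allele is therefore common to both groups, and they differ in the Met transgene and also in parity, which cannot be fully told apart here. The comparison asks whether that transgene goes with a different miRNA profile once histology is the same. What is called the Met tumour below is the only spindloid tumour of a mouse with the Met transgene and no conditional Trp53 allele (MMTV-Met, multiparous). It and 2 pools of normal mammary gland from wild-type mice, 1 nulliparous and 1 multiparous, are given beside the 2 groups as values. The numbers given to tumours here follow accession order and serve as names only. Whether each tumour came from its own animal is not stated, and Trp53 tumour 3 shares a number in its title with a Trp53 carcinoma. The p-values set differences between group means against the spread of these samples within groups. They treat the samples as independent, which is not known here.

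Met is the receptor tyrosine kinase for hepatocyte growth factor and signals through the MAPK and PI3K pathways, and p53 is a transcription factor that induces, among other genes, the miR-34 family. A mature miRNA is a short RNA, cut from one arm of a hairpin precursor (5p or 3p), that guides Argonaute proteins to messenger RNAs matching its seed, the bases near its 5′ end. Hairpins that lie close together on a chromosome are often cut from one transcript. In mammary tissue the miR-200 family marks epithelial cells, in which it represses the transcription factors Zeb1 and Zeb2, and its loss accompanies a mesenchymal state.

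The sequences below are those of the miRNAs on which the comparison turned, grouped by locus, from RefSeq on build GRCm38.p6, with the seed (bases 2 to 8) in capitals. Of the 20 miRNAs described individually, 18 had a mature sequence in the RefSeq table. The first pair lies on chromosome X, at chrX:19146307-19146329 and chrX:19146901-19146923 on the minus strand, and shares one seed.
miR-221-3p: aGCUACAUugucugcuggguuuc
miR-222-3p: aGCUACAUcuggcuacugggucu
The next 3 lie together on the plus strand of chromosome 17, at chr17:17830194-17830215, chr17:17830366-17830387 and chr17:17830817-17830840, and their seeds differ.
miR-99b-5p: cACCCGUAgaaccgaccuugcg
let-7e-5p: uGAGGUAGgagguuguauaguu
miR-125a-5p: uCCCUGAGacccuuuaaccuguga
On the plus strand of chromosome 8 lie miR-27a-3p, at chr8:84208727-84208747 between miR-23a and miR-24-2, and miR-140-3p, at chr8:107551288-107551308.
miR-27a-3p: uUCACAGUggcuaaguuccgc
miR-140-3p: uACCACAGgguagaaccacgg
Both of the following consist largely of a repeated UG, and lie on chromosome 5 at chr5:64970328-64970350 (plus strand) and chr5:82798964-82798986 (minus strand).
miR-574-5p: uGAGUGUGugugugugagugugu
miR-1187: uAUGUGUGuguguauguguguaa
Among miRNAs with a higher mean in MetTrp53 tumours, these 4 are shown for comparison with the group above: miR-3102-5p at chr7:100882388-100882409, miR-877-5p at chr17:35960795-35960814, miR-3081-5p at chr16:44558092-44558114 and miR-31-3p at chr4:88910577-88910599, all on the minus strand.
miR-3102-5p: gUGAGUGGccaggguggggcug
miR-877-5p: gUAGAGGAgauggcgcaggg
miR-3081-5p: gACUGGAGcuuggagcggugagc
miR-31-3p: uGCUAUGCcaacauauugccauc

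The level of a miRNA is log2 of its array intensity scaled between arrays, and lower values were raised to 3.60, the floor. A miRNA could therefore be detected and still stand at the floor. A level compares one miRNA between arrays and not one miRNA with another. The 6 arrays detected between 203 and 277 of 1122 mouse miRNAs, with 277, 203 and 242 on the arrays of MetTrp53 tumours 1, 2 and 3, against 209, 212 and 241 on those of Trp53 tumours 1, 2 and 3. A total of 234 miRNAs, detected on at least 3 of the 6 arrays, were tested, and 164 of them were detected on all 6. Scan days did not divide evenly between the genotypes: MetTrp53 tumours 1 and 2 were scanned on the second day with the Met tumour, MetTrp53 tumour 3 on the third day with Trp53 tumours 2 and 3, and Trp53 tumour 1 on the first day. In these bulk samples, fewer cells of a type and less RNA per cell cannot be told apart.

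The histology labels were first set against marker miRNAs. Over the 5 members of the miR-200 family (miR-200a-3p, miR-200b-3p, miR-200c-3p, miR-141-3p and miR-429-3p) the mean level was 3.60, 3.63 and 4.42 in MetTrp53 tumours 1, 2 and 3, against 4.44, 3.60 and 3.60 in Trp53 tumours 1, 2 and 3. The Met tumour was at 3.60. In carcinomas the same mean was 5.94, 9.11 and 8.39 in MetTrp53 tumours and 6.20, 8.47 and 3.72 in Trp53 tumours, and it was 6.63 and 6.52 in the normal pools. The family mean thus lay at or within 1 log2 unit of the floor in all 6 spindloid tumours, and in each genotype 1 tumour, MetTrp53 tumour 3 and Trp53 tumour 1, stood above the others. The epithelial miRNA miR-205-5p showed the same 2 tumours, at 3.60, 3.60 and 4.91 in MetTrp53 tumours and 4.34, 3.60 and 3.60 in Trp53 tumours. Over the 6 other epithelial miRNAs, of which it is 1, the mean was 4.01, 3.60 and 4.60 in MetTrp53 tumours. In Trp53 tumours that mean was 4.21, 3.60 and 3.89. MetTrp53 tumour 1 and Trp53 tumour 3 thus also stood above the floor by this list. One tumour labelled carcinoma, Trp53 carcinoma 3, had epithelial miRNAs as low as the spindloid tumours. It is the carcinoma whose title shares a number with that of Trp53 tumour 3.

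**Figure D1:**
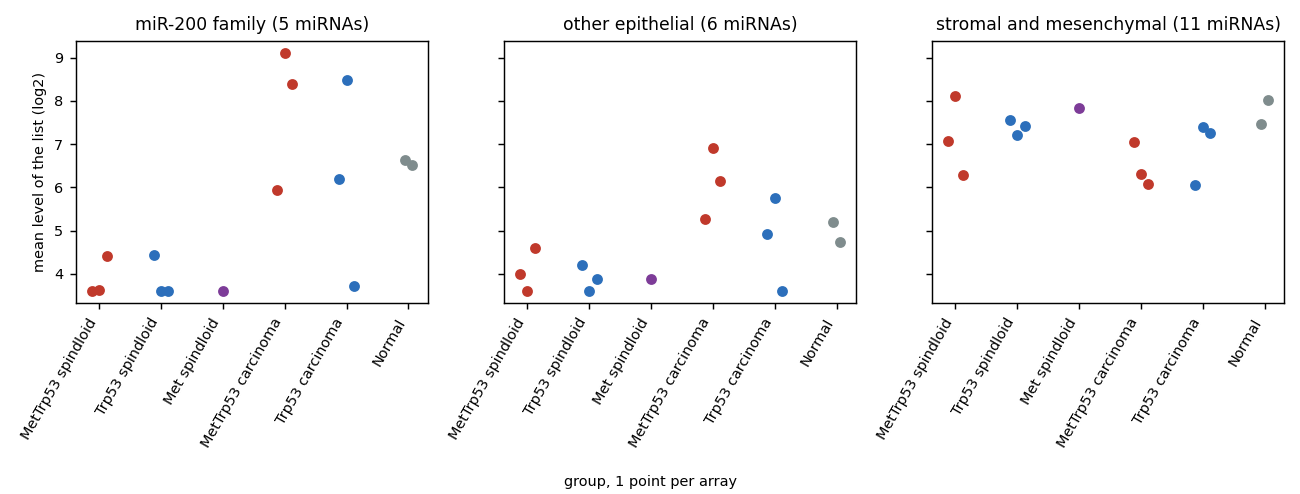
Mean level (log2 of scaled array intensity, vertical axis) over the miRNAs of 3 lists in each array, with 1 point per array and the groups along the horizontal axis. The miR-200 family lies between 3.60 and 4.44 in the 6 spindloid tumours of both genotypes and above 5.9 in 5 of the 6 carcinomas, while stromal miRNAs span 6.29 to 8.11 in the MetTrp53 spindloid tumours.

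Markers of other cells varied from tumour to tumour within a genotype. Across the 11 stromal and mesenchymal miRNAs the mean level was 7.06, 8.11 and 6.29 in MetTrp53 tumours 1, 2 and 3, against 7.57, 7.21 and 7.41 in Trp53 tumours 1, 2 and 3. The MetTrp53 tumours thus lay on both sides of the Trp53 tumours, with tumour 2 highest and tumour 3 lowest. miR-199a-3p, from a locus active in fibroblasts, illustrated this at 9.91, 11.40 and 8.32 in MetTrp53 tumours and 10.17, 9.80 and 10.24 in Trp53 tumours. The muscle miRNAs miR-133a-3p, miR-133b-3p, miR-1a-3p and miR-206-3p were at the floor in all 3 MetTrp53 tumours. In Trp53 tumour 1 they stood at 9.02, 10.09, 8.28 and 7.62, and in Trp53 tumours 2 and 3 at the floor. None of the muscle miRNAs was tested, since 1 of the 6 tumours had them above background. The part of these other cells in the differences below was not tested.

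No miRNA passed the threshold between MetTrp53 and Trp53 spindloid tumours. limma, with Benjamini-Hochberg adjustment over the 234 miRNAs, called 0 of them (0.00%), the smallest adjusted p being 0.571, while 17 (7.26%) had an unadjusted p under 0.05, 10 (4.27%) with a higher and 7 (2.99%) with a lower mean in MetTrp53 tumours. The 2 groups did not overlap for 26 miRNAs (11.1%), of which 15 (6.41%) were higher and 11 (4.70%) lower in MetTrp53 tumours. The median difference over all 234 was 0.05 on the log2 scale, and 16 miRNAs (6.84%) differed at least 2-fold, 11 of them higher and 5 lower in MetTrp53 tumours. The median 95% interval, which is not adjusted for the 234 tests, reached 0.88 to either side of the difference. None of the 16 that differed at least 2-fold was called, so differences of that size could be missed here, as could smaller ones. The MetTrp53 tumours also varied more among themselves. Their median SD was 0.54, against 0.27 in Trp53 tumours (n = 3 each), and the SD was larger in MetTrp53 tumours for 182 of the 234.

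**Figure D2:**
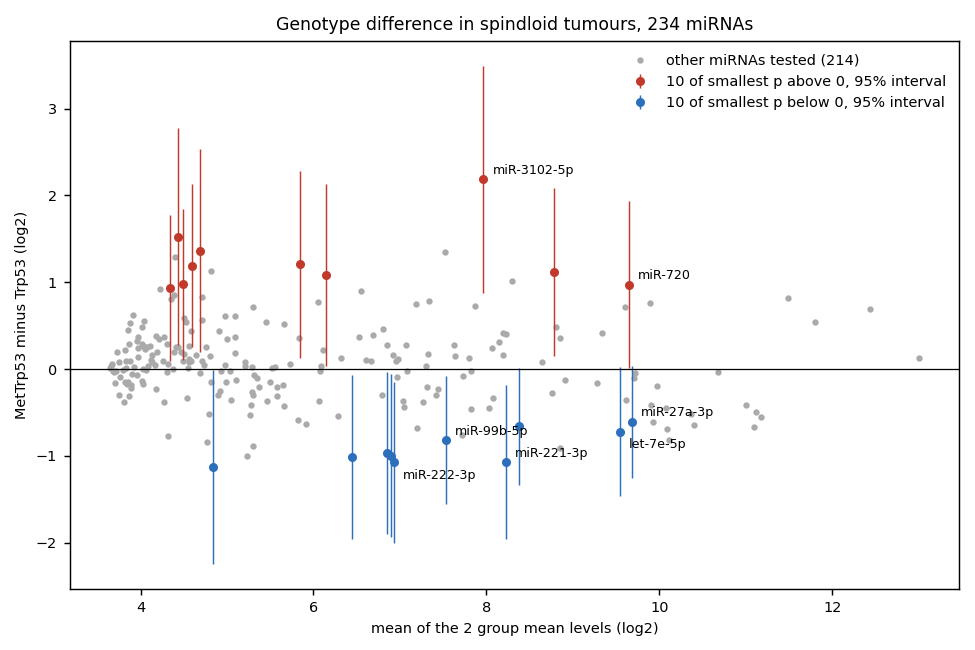
Difference between MetTrp53 and Trp53 spindloid tumours (log2, vertical axis) against the mean of the 2 group means (log2, horizontal axis) for the 234 miRNAs tested, with 95% intervals from limma for the 10 of smallest p in each direction. miR-3102-5p has the highest difference, 2.18, and most miRNAs lie within 1 log2 unit of 0.

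The 20 miRNAs of smallest p, 10 in each direction, are given as measured levels, not as changes. They were picked for small p in this contrast, so their direction and their lack of overlap are a description. Of the 20, 16 did not overlap between the groups. Before adjustment the limma p lay under 0.05 for the 10 higher and for 7 of the 10 lower. Differences among nulliparous tumours alone rest on 1 Trp53 tumour, tumour 1, and are given below for some of the 20. Each of those is smaller than the full difference, but others changed little. miR-140-3p had a mean of 6.40 in MetTrp53 tumours, against 7.29 in Trp53 tumour 1 and 7.39 over the Trp53 tumours. For miR-877-5p these values were 5.20, 3.67 and 3.67.

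Among the lower miRNAs the pair with a common seed, miR-221-3p and miR-222-3p, came first. Both repress the cell cycle inhibitor p27 (Cdkn1b), are induced by MAPK signalling in human cells, and were reported to be raised by MET and EGFR in human lung cancer cells. miR-221-3p was at 7.12, 8.30 and 7.64 in MetTrp53 tumours 1, 2 and 3, against 8.35, 9.05 and 8.88 in Trp53 tumours 1, 2 and 3. All 3 MetTrp53 tumours lay below all 3 Trp53 tumours, although MetTrp53 tumour 2 was only just below Trp53 tumour 1. The difference was -1.07 (SE 0.38, 95% interval -1.96 to -0.18). miR-222-3p was at 5.78, 6.72 and 6.70 in MetTrp53 tumours, against 6.90, 7.64 and 7.87 in Trp53 tumours. Its groups did not overlap either, and its difference was also -1.07 (SE 0.39, 95% interval -2.0 to -0.15). The limma adjusted p was 0.571 for both. The Met tumour, at 7.29 for miR-221-3p and 6.13 for miR-222-3p, lay within the range of the MetTrp53 tumours, and the normal pools were lower than all 6 tumours, at 4.46 and 5.33 for miR-221-3p. Among nulliparous tumours alone (3 MetTrp53 tumours against Trp53 tumour 1) the differences were -0.66 for miR-221-3p and -0.51 for miR-222-3p.

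The chromosome 17 locus gave 3 of the lower miRNAs. miR-99b-5p, of the miR-100 family, was at 6.86, 7.52 and 6.99 in MetTrp53 tumours, against 7.55, 8.20 and 8.07 in Trp53 tumours, a difference of -0.82 (SE 0.31). let-7e-5p, a member of the differentiation-linked let-7 family, was at 9.0, 9.74 and 8.81 in MetTrp53 tumours and 9.79, 9.98 and 9.95 in Trp53 tumours, a difference of -0.72 (SE 0.32). miR-125a-5p, a homolog of worm lin-4, was at 7.81, 8.42 and 7.90 in MetTrp53 tumours and 8.46, 8.82 and 8.83 in Trp53 tumours, a difference of -0.66 (SE 0.29). For all 3 the MetTrp53 tumours lay below the Trp53 tumours without overlap, with MetTrp53 tumour 2 the nearest to them. The other arm of the miR-125a hairpin, miR-125a-3p, had overlapping groups and a difference of opposite sign, 0.56 (SE 0.47). Among nulliparous tumours alone miR-99b-5p differed by -0.43 and miR-125a-5p by -0.41. For let-7e-5p the MetTrp53 mean was 9.18, against 9.79 in the nulliparous Trp53 tumour, tumour 1, and 9.91 over the Trp53 tumours.

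At the miR-23a, miR-27a and miR-24-2 locus on chromosome 8 the levels were close to one another in size of difference. miR-27a-3p was at 9.12, 9.56 and 9.46 in MetTrp53 tumours, against 9.74, 9.98 and 10.23 in Trp53 tumours, with no overlap and a difference of -0.61 (SE 0.27, limma adjusted p = 0.593). miR-23a-3p and miR-24-3p differed by -0.61 (SE 0.33) and -0.65 (SE 0.32), with overlapping groups. miR-24-3p can also come from a second hairpin on another chromosome. miR-24-3p was at 10.06, 10.39 and 9.76 in MetTrp53 tumours and 10.34, 10.65 and 11.17 in Trp53 tumours, where MetTrp53 tumour 2 was a little above Trp53 tumour 1. Among nulliparous tumours alone miR-27a-3p differed by -0.37.

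Both arms of miR-140, a miRNA best known from cartilage, were lower in MetTrp53 tumours without overlap. miR-140-3p was at 5.55, 6.98 and 6.67 in MetTrp53 tumours, against 7.29, 7.44 and 7.45 in Trp53 tumours, a difference of -1.0 (SE 0.40). miR-140-5p was at 5.56, 6.95 and 6.60 in MetTrp53 tumours, against 7.20, 7.54 and 7.25 in Trp53 tumours, a difference of -0.96 (SE 0.40). MetTrp53 tumour 1 was the lowest for both arms, and without it the differences were -0.57 for miR-140-3p and -0.56 for miR-140-5p. The Met tumour was at 5.89 and 6.09 for miR-140-3p and miR-140-5p.

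For both UG-repeat sequences, miR-574-5p and miR-1187, the groups overlapped. miR-574-5p was at 5.89, 5.81 and 6.12 in MetTrp53 tumours, against 6.12, 7.21 and 7.53 in Trp53 tumours, a difference of -1.01 (SE 0.40). miR-1187 was at 4.20, 3.79 and 4.82 in MetTrp53 tumours, against 4.49, 5.69 and 6.01 in Trp53 tumours, a difference of -1.13 (SE 0.47). Trp53 tumour 1 stood near the MetTrp53 tumours for both. Set against that nulliparous tumour alone, the MetTrp53 tumours differed by -0.18 for miR-574-5p and by -0.22 for miR-1187.

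Among the higher miRNAs, miR-3102-5p had the highest difference of all 234. It was at 9.80, 8.14 and 9.23 in MetTrp53 tumours 1, 2 and 3, against 7.64, 6.0 and 6.98 in Trp53 tumours 1, 2 and 3. Each group spread over more than 1 log2 unit and the groups did not overlap. The difference was 2.18 (SE 0.56, 95% interval 0.87 to 3.50, limma adjusted p = 0.571), or 4.54-fold. The Met tumour was at 8.10 and the normal pools at 7.84 and 6.76. Among nulliparous tumours alone the difference was 1.42.

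miR-5100 and miR-720 were detected in all 6 tumours. RNA of the length and sequence called miR-720 can come from a transfer RNA. miR-5100 was at 8.82, 9.23 and 9.96 in MetTrp53 tumours, against 8.52, 8.55 and 7.60 in Trp53 tumours, and miR-720 was at 9.62, 9.96 and 10.82 in MetTrp53 tumours, against 9.56, 9.29 and 8.62 in Trp53 tumours. The groups did not overlap for either, and the differences were 1.12 (SE 0.41) and 0.97 (SE 0.41). MetTrp53 tumour 3 was the highest and Trp53 tumour 3 the lowest for both, and without MetTrp53 tumour 3 the difference of miR-720 was 0.63. With levels scaled by the percentile over all mouse probes, where the median over all 234 was -0.31, the differences were 0.59 for miR-5100 and 0.45 for miR-720. Within the scan day that held both genotypes they were 1.89 and 1.86, and among nulliparous tumours alone that of miR-720 was 0.57.

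Most of the remaining higher miRNAs lay within a few log2 units of the floor. miR-877-5p, whose precursor is released by splicing of its host transcript, was at 5.70, 3.92 and 5.97 in MetTrp53 tumours, against 3.67, 3.60 and 3.73 in Trp53 tumours. MetTrp53 tumour 2 was close to the Trp53 tumours and the other MetTrp53 tumours were about 2 log2 units above, for a difference of 1.53 (SE 0.53). miR-3081-5p, at 5.77, 4.24 and 6.09 in MetTrp53 tumours and 3.78, 3.96 and 4.26 in Trp53 tumours, and miR-5128, at 7.01, 5.40 and 6.92 in MetTrp53 tumours and 5.05, 5.45 and 5.21 in Trp53 tumours, had the same shape, with MetTrp53 tumour 2 among the Trp53 tumours. miR-135a-1-3p was at 5.68, 4.48 and 5.41 in MetTrp53 tumours and 4.44, 3.62 and 3.93 in Trp53 tumours. miR-652-5p and miR-296-5p differed by 0.98 (SE 0.37) and 0.93 (SE 0.36), with no overlap. miR-296-5p was detected in 3 MetTrp53 tumours and 1 Trp53 tumour, and miR-877-5p in 2 MetTrp53 tumours and 1 Trp53 tumour. Most of their Trp53 levels were therefore not well above background, and the size of these differences depends on the floor. The other arm of the miR-652 hairpin, miR-652-3p, differed in the opposite direction, by -0.30 (SE 0.26). These differences depended on how levels were made. With normexp background correction, which also replaced the processed signal by the median signal and added an offset of 50, they were 0.25 for miR-877-5p, 0.28 for miR-3081-5p, 0.27 for miR-135a-1-3p, 0.54 for miR-5128, 0.06 for miR-652-5p and 0.01 for miR-296-5p. With the percentile over all mouse probes miR-652-5p differed by 0.48 and miR-296-5p by 0.60.

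miR-31-3p comes from the arm opposite to miR-31-5p, which is the main product of its hairpin and has been studied in human breast cancer metastasis. miR-31-3p was at 6.42, 6.0 and 7.64 in MetTrp53 tumours, against 5.79, 5.70 and 5.32 in Trp53 tumours, without overlap and with a difference of 1.08 (SE 0.45). miR-31-5p was at 9.68, 8.73 and 10.22 in MetTrp53 tumours and 9.81, 9.03 and 8.54 in Trp53 tumours, with overlap and a difference of 0.42 (SE 0.48). MetTrp53 tumour 3 was the highest for both arms, and without it miR-31-3p differed by 0.61. With the percentile over all mouse probes it differed by 0.56. Both arms were low in the normal pools, where miR-31-3p was at the floor.

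**Figure D3:**
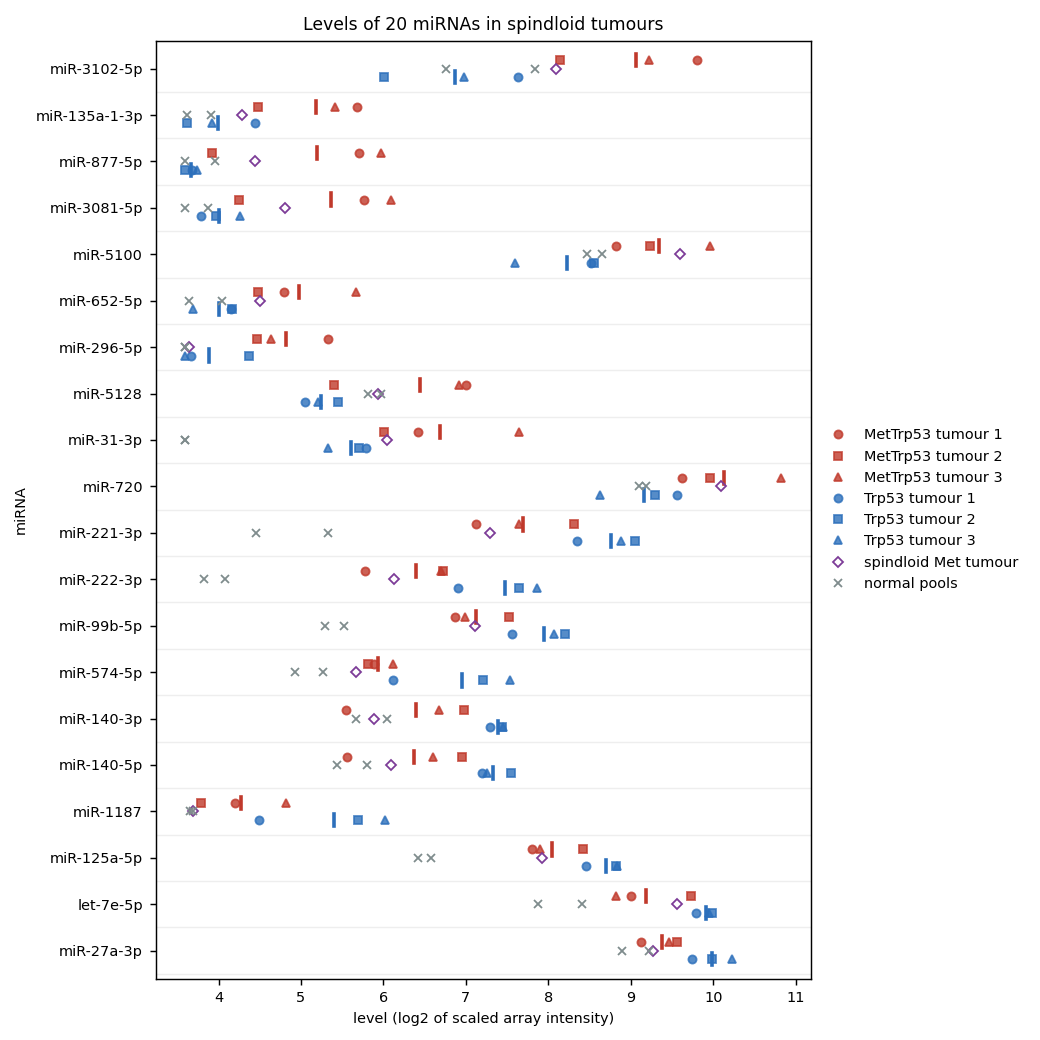
Level of each of the 20 miRNAs (log2 of scaled array intensity, horizontal axis) in every spindloid tumour, with MetTrp53 tumours above Trp53 tumours in each row, a vertical bar at each group mean, an open diamond for the Met tumour and crosses for the normal pools. The groups are separate in 16 of the 20 rows, and MetTrp53 tumour 2 is the MetTrp53 tumour nearest the Trp53 tumours in most rows.

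Within the 1 scan day that held both genotypes (MetTrp53 tumour 3 against Trp53 tumours 2 and 3), all 20 kept the sign of the full comparison, with a median difference of 1.88 for the 10 higher and -1.04 for the 10 lower. On the 1 slide that held both (MetTrp53 tumour 3 against Trp53 tumour 3) all 20 did so too, with medians of 2.09 and -1.11. These values rest on 1 MetTrp53 tumour that is also part of the full comparison. Where the groups did not overlap, the sign could not change in any subset of these tumours. The kept signs are therefore no check on scan day or slide. The Met tumour lay nearer the MetTrp53 mean than the Trp53 mean for 7 of the 10 higher and 9 of the 10 lower miRNAs. Over all 234 it lay nearer the MetTrp53 mean for 120 (51.3%). The exceptions among the 20 were miR-135a-1-3p, miR-296-5p, miR-31-3p and let-7e-5p. The Met tumour shared a slide with MetTrp53 tumour 1 and a scan day with MetTrp53 tumours 1 and 2.

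The base composition of the higher and lower miRNAs is given as a description. The median GC content was 62.5% for the 9 of the 10 higher miRNAs with a sequence, within 43.5% to 72.7%, and 50% for 9 of the 10 lower ones, within 34.8% to 63.6%. Over the 182 tested miRNAs with a sequence the median was 49%.

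The number of miRNAs that passed the threshold depended on 1 tumour. Without MetTrp53 tumour 2, limma called 14 of 234 miRNAs (5.98%), all higher in MetTrp53 tumours 1 and 3 than in the 3 Trp53 tumours, with adjusted p between 0.0168 and 0.0476. The 14 were miR-877-5p, miR-721, miR-5128, miR-3081-5p, miR-5622-3p, miR-680, miR-328-5p, miR-2861, miR-5126, miR-1982-5p, miR-705, miR-3102-5p, miR-135a-1-3p and miR-5109. Of these, 5 belong to the 20 above, and the others were named after their values were seen. Their differences lay between 1.10 and 2.64. miR-5126, far above the floor on every array, was at 12.68 and 12.20 in MetTrp53 tumours 1 and 3 and 10.82 in MetTrp53 tumour 2, against 11.15, 10.92 and 11.15 in the Trp53 tumours. miR-721, near the floor, was at 5.55 and 5.90 in MetTrp53 tumours 1 and 3 and 3.68 in MetTrp53 tumour 2, against 3.97, 3.60 and 3.68 in the Trp53 tumours. miR-721, miR-877-5p and miR-1982-5p were each detected in 2 MetTrp53 tumours and 1 Trp53 tumour. MetTrp53 tumour 2 lay above all Trp53 tumours for 3 of the 14, among them for 6 and below all of them for 5. The median GC content of the 14 was 65.9%, over the 12 with a sequence. The Met tumour lay nearer the mean of MetTrp53 tumours 1 and 3 than the Trp53 mean for 0 of the 14, against 94 of the 234 tested.

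Other measures of these arrays are given beside these calls. Across the 234 miRNAs, which are not independent replicates, MetTrp53 tumour 2 correlated at r = 0.88 and 0.87 with MetTrp53 tumours 1 and 3, which correlated at 0.94 with each other. With Trp53 tumours 1, 2 and 3 it correlated at 0.96, 0.94 and 0.92. MetTrp53 tumour 1 correlated with the same 3 at 0.92, 0.92 and 0.92, and MetTrp53 tumour 3 at 0.92, 0.91 and 0.91. Its array had the lowest share of mouse spots well above background, 15.0%, next to 15.5% for Trp53 tumour 1, while MetTrp53 tumours 1 and 3 had 21.0% and 19.99% and Trp53 tumours 2 and 3 had 16.4% and 18.4%. Its stromal miRNAs were the highest of the 6 tumours (8.11). The part of array signal and of stromal cells in the 14 calls was not tested. The count and its direction also depended on how levels were made. Without MetTrp53 tumour 2, normexp background correction gave 21 calls, 10 higher and 11 lower in MetTrp53 tumours, of which 4 were among the 14. A floor 2 times higher gave 21 calls, 14 higher and 7 lower, and quantile normalisation gave 9, 8 higher and 1 lower. The percentile over all mouse probes gave 2 calls and a floor 4 times lower gave 4, all higher, and the authors' table gave 0, with 48 at an unadjusted p under 0.05 by limma.

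**Figure D4:**
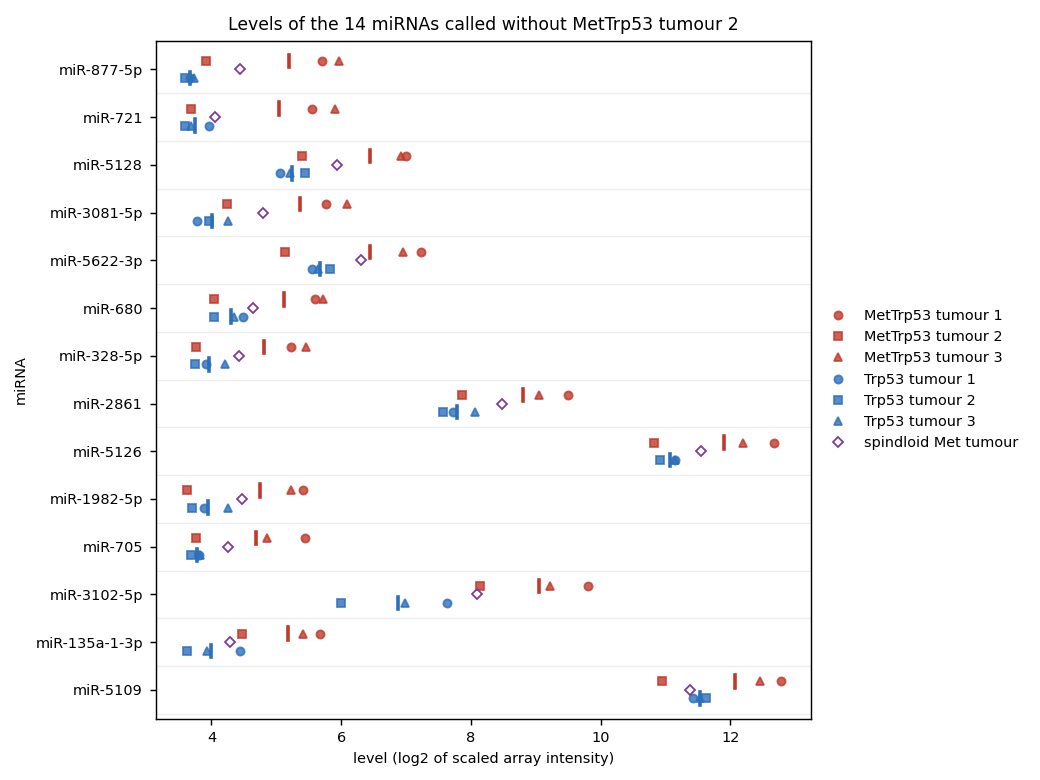
Level of the 14 miRNAs called when MetTrp53 tumour 2 is left out (log2 of scaled array intensity, horizontal axis) in every spindloid tumour, with MetTrp53 tumours above Trp53 tumours in each row, a vertical bar at each group mean over all 3 tumours and an open diamond for the Met tumour. MetTrp53 tumours 1 and 3 lie to the right of the Trp53 tumours in every row, while MetTrp53 tumour 2 (square) lies among or below them in 11 rows.

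The lists of related miRNAs were described by counts, beside the median of 0.05 over all 234, and none of their members was called in the fit of all 6 tumours. With 1 tumour left out at a time, a check added after seeing the data, the median changed sign for 12 of the 17 lists with a tested member. Among the miRNAs reported as regulated by EGFR and MET in human lung cancer cells, 5 of 6 were tested, and their median difference was -0.59, with 4 lower and 1 higher in MetTrp53 tumours. With 1 tumour left out the median lay between -0.87 (without MetTrp53 tumour 2) and -0.35 (without MetTrp53 tumour 1). The list gives no direction of regulation for its members, so its median was not set against an expected sign. The members were miR-221-3p, miR-222-3p, miR-103-3p at -0.45 (SE 0.30), miR-30c-5p at -0.59 (SE 0.52) and miR-30b-5p at 0.05 (SE 0.38), and miR-203-3p was at the floor in all 6 tumours. Of the 8 miRNAs induced by growth factors or MAPK signalling, all were tested, with 5 higher, 3 lower and a median of 0.07, or -0.09 without Trp53 tumour 3. miR-21-5p, a miRNA raised in many tumours, was at 13.04, 13.41 and 12.74 in MetTrp53 tumours and 12.67, 13.11 and 13.03 in Trp53 tumours, a difference of 0.13 (SE 0.29). miR-132-3p, an early target of growth factor signalling, was high in 1 tumour of each genotype: it was at 7.75, 4.62 and 3.90 in MetTrp53 tumours and 4.25, 8.23 and 4.22 in Trp53 tumours.

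miRNAs known to target Met messenger RNA were tested for 7 of 11, with 3 higher, 4 lower and a median of -0.20. Without MetTrp53 tumour 2 the median was -0.70, and without Trp53 tumour 3 it was 0.05. Within them the groups did not overlap only for miR-27a-3p, and miR-34a-5p, which is also induced by p53, was at 7.45, 7.19 and 6.02 in MetTrp53 tumours and 6.19, 6.62 and 6.68 in Trp53 tumours, a difference of 0.39 (SE 0.42). The Met tumour, whose genotype lists no conditional Trp53 allele, had the highest miR-34a-5p level of the 7 spindloid tumours, 8.40. The p53-induced list had 5 of 8 members tested and a median of 0.00, with 3 higher and 2 lower, and miR-34b-5p and miR-34c-5p differed by 0.19 (SE 0.36) and 0.00 (SE 0.32).

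Proliferation-linked miRNAs of the miR-17-92 cluster and its paralogs were tested for 9 of 11, with 7 higher, 2 lower and a median of 0.31. miR-19a-3p was at 4.86, 4.71 and 6.59 in MetTrp53 tumours and 4.52, 4.33 and 3.91 in Trp53 tumours, and miR-19b-3p was at 7.85, 7.91 and 8.94 in MetTrp53 tumours and 7.77, 7.48 and 7.28 in Trp53 tumours. Neither overlapped, with differences of 1.13 (SE 0.52) and 0.72 (SE 0.37), and MetTrp53 tumour 3 stood highest. Without that tumour the median of the list was 0.06, with 6 higher and 3 lower, and the differences were 0.53 for miR-19a-3p and 0.37 for miR-19b-3p. Without Trp53 tumour 3 the median was 0.13, and without MetTrp53 tumour 1 or Trp53 tumour 1 it was 0.58. miR-92a-3p, from the same cluster, differed by -0.02 (SE 0.47).

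All 9 members of the let-7 family were tested, with 8 lower, 1 higher and a median of -0.49. With 1 tumour left out the median lay between -0.74 (without MetTrp53 tumour 2) and -0.27 (without MetTrp53 tumour 1), with 7 to 9 lower. let-7b-5p was at 10.55, 11.40 and 10.33 in MetTrp53 tumours and 11.43, 11.49 and 11.34 in Trp53 tumours, where MetTrp53 tumours 1 and 3 were lower and MetTrp53 tumour 2 lay among the Trp53 tumours. let-7c-5p differed by -0.55 (SE 0.34), with MetTrp53 tumour 2 just above all Trp53 tumours. Members of this family differ by few bases, so their probes may share signal. The stromal and mesenchymal list had 10 of 11 tested, 8 lower and 2 higher, with a median of -0.19. Without MetTrp53 tumour 2 all 10 were lower and the median was -0.68, whereas without MetTrp53 tumour 3 the median was 0.19, with 7 higher. The lowest difference in it was that of miR-199b-5p, -0.91 (SE 0.57). The tumour-associated list had 6 of 6 tested and a median of -0.40, with 4 lower and 2 higher, and without Trp53 tumour 2 the median was 0.03. In it, the hypoxia-linked miR-210-3p differed by -0.38 (SE 0.66).

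Lists of other loci and cells are given by their medians. These were -0.24 for the miR-29 and miR-30 families (8 tested), 0.00 for the miR-15 and miR-16 families (6 tested), 0.18 for the Dlk1-Dio3 cluster (8 of 28 tested), 0.19 for leukocyte miRNAs (6 of 7 tested) and -0.10 for adipose miRNAs (4 tested). Without MetTrp53 tumour 2 the medians were -0.51 for miR-15 and miR-16, with all 6 lower, -0.39 for Dlk1-Dio3 and -0.10 for leukocyte miRNAs, and without MetTrp53 tumour 1 they were -0.01 for miR-29 and miR-30 and 0.21 for adipose miRNAs. In the leukocyte list miR-142-3p differed by 0.90 (SE 0.53) and miR-223-3p, of myeloid cells, by -0.41 (SE 0.32), both with overlap. The endothelial miR-126-3p differed by -0.05 (SE 0.38) and the erythroid miR-451 by -0.68 (SE 0.55), or -0.13 without MetTrp53 tumour 2. Of the miR-200 family, miR-200b-3p was tested and differed by 0.00 (SE 0.48), and the 3 other epithelial miRNAs tested, miR-182-5p, miR-183-5p and miR-96-5p, differed by 0.16, 0.08 and 0.59, with a median of -0.13 without MetTrp53 tumour 3.

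Carcinomas of the same genotypes gave the genotype contrast outside spindloid histology, with 3 tumours a genotype. Of the MetTrp53 carcinomas, 1 came from a nulliparous mouse and 2 from multiparous mice. Among the Trp53 carcinomas, 1 came from a nulliparous mouse and 2 had no stated parity. MetTrp53 carcinomas 2 and 3 and Trp53 carcinoma 2 were labelled poorly differentiated adenocarcinoma, the others adenocarcinoma. Parity was thus spread otherwise than in the spindloid tumours. Of the Trp53 carcinomas, 2 share a number in their titles; whether they came from 1 animal is not stated, and the fits treat them as separate. limma called 0 of 281 miRNAs there (0.00%), with 6 at an unadjusted p under 0.05 (2.14%) and a smallest adjusted p of 0.995. Of the 20 miRNAs, 15 had the same sign in carcinomas, 9 of the 10 higher and 6 of the 10 lower, while over all 234 the sign was the same for 143. miR-5100, miR-652-5p and miR-720 had differences of similar size in both, at 1.12, 1.09 and 1.18 in carcinomas. miR-221-3p and miR-222-3p differed by -0.32 (SE 1.05) and 0.32 (SE 1.02) in carcinomas, where miR-221-3p spread from 5.14 to 8.24 in MetTrp53 and from 5.69 to 7.79 in Trp53 tumours. Both miR-140 arms had the opposite sign there, at 1.04 (SE 1.11) and 1.18 (SE 1.16).

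The difference between histologies was itself tested, as the genotype difference in spindloid tumours minus that in carcinomas. Parity also differed between these contrasts and cannot be told apart from histology here. Trp53 carcinoma 3, low in epithelial miRNAs, entered as a carcinoma. It and Trp53 spindloid tumour 3, which share a title number, were treated as separate samples. limma called 0 of 281 (0.00%), with 3 at an unadjusted p under 0.05 (1.07%) and a smallest adjusted p of 0.992. The 5 of smallest p were miR-27a-3p, miR-24-3p, miR-30d-5p, miR-28-5p and miR-3102-5p. For miR-27a-3p the genotype difference was -0.61 in spindloid tumours and 0.41 in carcinomas, a difference of -1.02 (SE 0.36). For miR-24-3p it was -0.65 in spindloid tumours and 0.57 in carcinomas, a difference of -1.21 (SE 0.47). The median SE of the difference between histologies was 0.57, so a genotype effect present in one histology and not in the other was not shown for any miRNA.

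**Figure D5:**
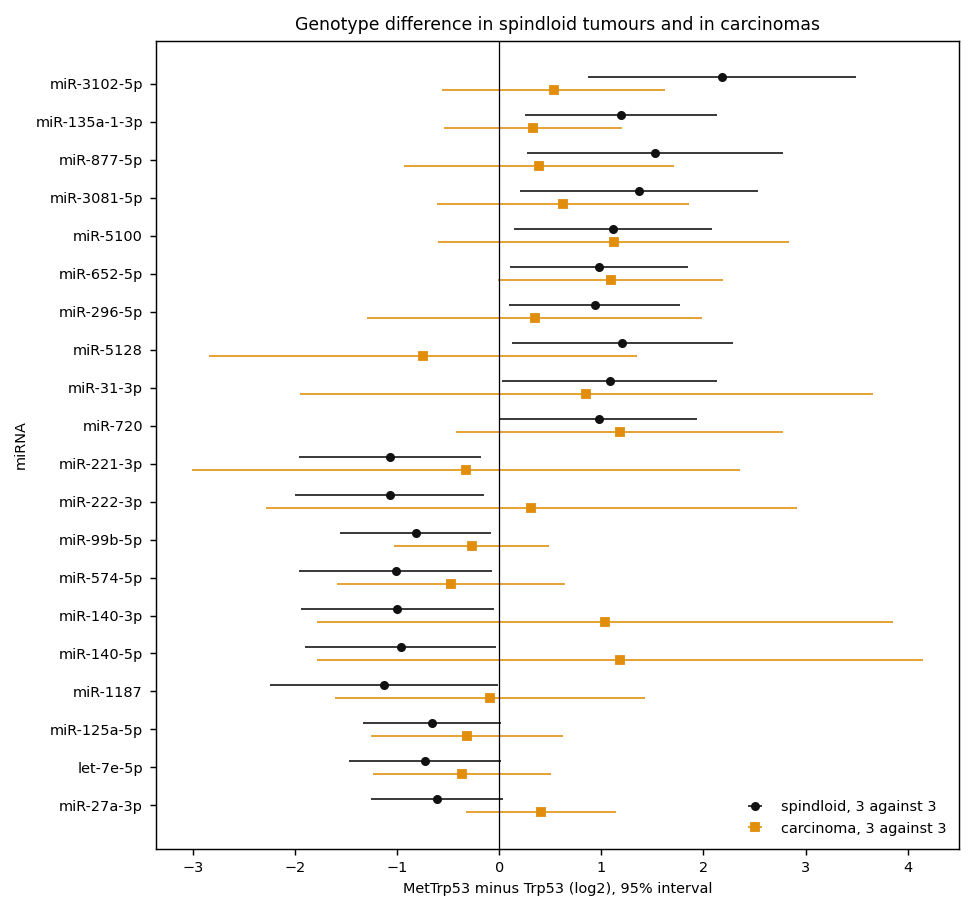
Genotype difference (MetTrp53 minus Trp53, log2, horizontal axis) with 95% limma intervals for the 20 miRNAs, in spindloid tumours (black circles) and in carcinomas (orange squares), 3 tumours a genotype in each. For miR-5100, miR-652-5p and miR-720 both points lie near 1, while the carcinoma interval holds 0 for all 20.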

How the data were processed

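Total RNA from snap-frozen tissue was measured on Agilent mouse miRNA arrays with a single dye (Cy3), as the labels' protocols state. The deposited scanner files hold the intensity of single spots from Agilent Feature Extraction 10.7.3.1, background-subtracted and not normalised between arrays, per the file headers. A second deposited table holds the authors' log2 values, for which the submitters' processing notes name RMA. Its column medians lay between 1.72 and 1.91, and its columns rise with log2 scanner signal of the same arrays (r between 0.97 and 0.98), while its centring is not known. It was used as an alternative only.

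Processed signal of non-outlier spots was averaged per probe and scaled to the 75th percentile of those 221 probes that no array of the 25 left near background. That percentile ranged from 278.9 to 908.9 intensity units, and the number of arrays limits the precision. After a floor of 0.0212 of the percentile, log2 was taken, and the level of a miRNA was the mean over its probes. It counted as detected on an array where at least 0.5 of the spots of one of its probes were well above background. Groups were compared by limma 3.58.1 (functions lmFit and eBayes, R 4.3.3), calling miRNAs at an adjusted p under 0.05 by Benjamini-Hochberg and giving 95% intervals. Spindloid tests took miRNAs detected on at least 3 of 6 arrays. Carcinoma and interaction tests took those detected on at least 3 of 12. The fits were tested on simulated data. The scanner files here have no mean signal column, so normexp background correction (offset 50) used the median signal and median background.

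The miRNAs named were those past the threshold, filled to 10 in each direction with the smallest p among miRNAs detected in both groups, the tested list members, and for the interaction the 5 of smallest p. The 18 lists held miRNAs that were Met-targeting, EGFR- and MET-regulated, p53-induced, tumour-associated, growth-factor and MAPK-induced, of the miR-200 family, other epithelial, miR-17-92 and paralogs, stromal and mesenchymal, let-7, miR-29 and miR-30, miR-15 and miR-16, Dlk1-Dio3, leukocyte, erythroid, endothelial, muscle and adipose. The tumours compared and the lists were chosen with earlier results of these data known. Set tests were not run. Alternatives changed the background correction, scaling, floor, filter, probe summary, batch terms and the tumours in the fit. Tumours called intermediate or without stated pathology, and Met carcinomas, entered no comparison between groups.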

Additional observations from a re-analysis of the deposited data

How the results depend on the processing

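With 3 tumours a genotype, the median unadjusted 95% interval reached 0.88 log2 units to either side. None of the 16 miRNAs that differed at least 2-fold was called, so differences of that size, as well as smaller ones, can stay below the threshold. The count of 0 called in spindloid tumours was the same in 19 alternatives with 2 or more tumours in each genotype, which gave 8 to 43 miRNAs at an unadjusted p under 0.05 and a smallest adjusted p between 0.128 and 0.978. The fits of nulliparous tumours (3 against 1) and of tumours scanned on day 3 (1 against 2) also called 0, but with 1 tumour in a genotype, assumed to vary like the others, they say nothing about stability. Leaving out 1 tumour at a time gave 0 to 14 calls, and the 14 arose without MetTrp53 tumour 2 (59 at an unadjusted p under 0.05). In the carcinoma contrast and in the interaction, 0 were called in every alternative run and with each tumour left out, also with the 2 Trp53 carcinomas that share a title number averaged as 1 sample (added after seeing the data). All 20 named miRNAs kept their direction in each alternative that tested them, and 5 passed the threshold without MetTrp53 tumour 2. The 20 were picked for small p in these same tumours. Subsets of the tumours could not reverse those without overlap, so the kept directions are a description. Scaling by the percentile over all mouse probes moved the median over all 234 to -0.31, and normexp moved it to -0.10. Under the percentile over all mouse probes the differences of miR-221-3p (-1.59) and miR-3102-5p (1.66) remained on either side of the median. Scan date as a fixed block, which was chosen after seeing the data, gave 20 miRNAs at an unadjusted p under 0.05 and a smallest adjusted p of 0.504. Without MetTrp53 tumour 2, a count of 14, other levels (also chosen after seeing the data) gave 2 calls with the percentile over all mouse probes, 9 with quantile normalisation, 4 with a floor 4 times lower, 21 with a floor 2 times higher (7 of them lower), 21 with normexp (11 of them lower) and 0 with the authors' table. The 14 were picked in these same tumours, and all had a positive difference under each of these levels. Why the counts differ was not tested. Slide as a random block could not be fitted, because in the 6 tumours 1 slide held more than 1 array. No paired analysis was possible because the labels give the tumours no replicate numbers shared between genotypes.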

Other observations

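Tumours that entered no comparison give further values of the leading miRNAs. In tumours called intermediate, miR-221-3p was at 7.39 in the MetTrp53 tumour and at 8.43 and 9.38 in the Trp53 tumours. miR-222-3p was at 6.19 in the MetTrp53 intermediate tumour and at 7.14 and 7.76 in the Trp53 intermediate tumours. The MetTrp53 tumour with no stated pathology was at 8.04 for miR-221-3p and 6.48 for miR-222-3p. The 6 Met carcinomas were lower, between 3.89 and 5.41 for miR-221-3p.

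For miR-27a-3p the intermediate tumours were at 9.28 (MetTrp53) and at 10.42 and 10.29 (Trp53), and the MetTrp53 tumour with no stated pathology was at 9.25. For miR-3102-5p they were at 8.33 (MetTrp53) and at 7.21 and 7.41 (Trp53), with the tumour of no stated pathology at 7.90. With 1 MetTrp53 and 2 Trp53 intermediate tumours these values have no test. miR-200c-3p was at 4.42 in the MetTrp53 intermediate tumour, at the floor in both Trp53 intermediate tumours and at 3.76 in the tumour with no stated pathology.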
